A study of Mus musculus with 14 samples.

Results

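The 10 genes described here encode receptors for acetylcholine that neurons carry. They were taken by symbol from the gene table of the 2 RNA-seq libraries, which lists 19215 genes. Of the members, 7 are nicotinic subunits (Chrna2, Chrna3, Chrna4, Chrna5, Chrna7, Chrnb2 and Chrnb4) and 3 are muscarinic receptors (Chrm1, Chrm2 and Chrm3). The matching exon tables hold 1 cassette exon of a member, in Chrm1, of 13189 cassette exons.

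Nicotinic receptors are ion channels built of several subunits, and they depolarise a cell when acetylcholine binds. Muscarinic receptors act more slowly through G proteins: the receptor encoded by Chrm2 couples to Gi/o proteins, those encoded by Chrm1 and Chrm3 to Gq proteins. In the spinal cord, motoneurons (MNs) release acetylcholine onto muscle and onto Renshaw cells, inhibitory interneurons with nicotinic receptors, and the receptor encoded by Chrm2 lies under the large cholinergic C-boutons on the MN cell body.

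The series measured NOVA binding and RNA in mouse spinal cord. NOVA proteins are neuronal RNA-binding proteins that regulate splicing and recognise YCAY tetramers, in which Y is C or T. For MN HITS-CLIP, in which RNA crosslinked to a protein is immunoprecipitated and sequenced, an AcGFP-tagged NOVA2 was expressed from a Chat BAC transgene in the hemizygous C57BL/6 lines Chat6 and Chat17 (4 libraries each, every one pooled from the spinal cords of several 3-month-old mice) and precipitated with 2 anti-GFP antibodies. For whole spinal cord (WSC) CLIP, 4 libraries were made from single wild-type C57BL/6 mice of 3 months, with a human anti-NOVA serum that takes the untagged NOVA proteins of all neurons. The 2 WSC RNA-seq libraries, 1 from a male and 1 from a female, came from 12-week-old B6/SJL mice that carry a transgene for wild-type human SOD1, so the RNA levels and the CLIP reads are from different animals. The Chat promoter is active in cholinergic neurons, which besides somatic MNs include autonomic preganglionic neurons and a few interneurons. MN and WSC CLIP differed at once in cell type, transgene, antibody, form of NOVA, pooling and depth, and these cannot be told apart.

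Depth limited the MN side. CLIP values are given as RPM, reads scaled to 1000000 reads on genes. Unique CLIP reads that fell on protein-coding genes numbered 49985 to 679899 in the 8 MN libraries and 1785543 to 4970198 in the 4 WSC libraries, and WSC held 9.08 times the MN total. The shallowest library, Chat17 replicate 1, had a median correlation of 0.72 with the other MN libraries over 3309 genes, against 0.80 to 0.85 for the other 7. The MN libraries were checked against markers of their cell type: all 3 testable genes of the 6 MN markers had more reads in MN (Chat, log2 difference 3.08, SE 0.13), and all 5 inhibitory interneuron markers had fewer. MN markers summed to 1160 to 2866 RPM in MN libraries and 386 to 510 in WSC, and the MN transcription factor Mnx1 had no MN read. The deposited RNA-seq tables held 72006019 reads for the male and 65625173 for the female library. In these, the neuronal gene Snap25 stood at 2029 and 2084 RPKM (reads per kilobase of exon, scaled to 1000000 reads). Scn10a, of dorsal root ganglion neurons, was at 0.0074 and 0.014, and Avil, the highest marker of those neurons, at 0.13 and 0.080. The muscle genes ran from 0 in both libraries for Myh4 to 1.19 and 1.29 for Mylpf.

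Sequences at points of high read depth are shown first, as a description, while the comparison of MN with WSC further on counts reads over whole genes. The deepest CLIP position, meaning the base covered by most reads, lay in coding sequence for Chrna4 and Chrnb2, the genes of the most common nicotinic receptor of the brain. In both, the base deepest over all libraries differed from the one deepest in MN libraries, and for Chrna4 it had 2 MN and 369 WSC reads. In the 101-nt windows around the positions deepest in MN libraries (mm9, chr2:180763851-180763951 for Chrna4 and chr3:89565147-89565247 for Chrnb2, both on the minus strand), capitals mark YCAY tetramers on the transcript strand, overlapping ones included.
Chrna4: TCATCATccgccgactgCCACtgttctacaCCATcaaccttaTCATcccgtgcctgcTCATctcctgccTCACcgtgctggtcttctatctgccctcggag
Chrnb2: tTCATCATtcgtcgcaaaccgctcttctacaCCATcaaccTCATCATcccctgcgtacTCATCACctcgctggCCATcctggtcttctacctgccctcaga

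The windows of these paralogs could be aligned without gaps over 100 bases, of which 79 were identical. Chrna4 had 7 YCAY tetramers in the aligned stretch, Chrnb2 had 8, and 5 were at the same aligned place. The longest identical run was 17 bases, shorter than the median CLIP read of every library (31 to 52 nt), and the authors kept reads that map to 1 place. The tetramer is common in these genes: of 3822 consecutive 101-nt windows over the 10 members, 81.0% held at least 1, with a mean of 1.78 a window.

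In Chrm2, the deepest position over all libraries was in the 3′ UTR and the deepest over MN libraries alone was in an intron. The intronic window (mm9, chr6:36375064-36375164, plus strand) is printed because it holds a run of TCAT repeats, and the 29-nt stretches of the 3′ UTR of Chrm2 (chr6:36477690-36477718, plus strand), of Chrna7 (chr7:70243672-70243700, minus strand) and of Chrna3 (chr9:54860384-54860412, minus strand) because each is the most covered point of its gene over all 12 libraries.
Chrm2 intron: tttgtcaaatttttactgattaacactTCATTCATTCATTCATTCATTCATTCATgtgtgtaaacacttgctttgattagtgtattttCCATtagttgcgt
Chrm2 3′ UTR: TCATcttctctgcttTCACtagaactgtc
Chrna7 3′ UTR: gatCCATttcaacagctgccttgcaaaag
Chrna3 3′ UTR: tgaacattTCACtatccCCATgattgaaa

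Transcript levels of the nicotinic α subunits were measured first. Chrna4, for the α subunit of the α4β2 receptor, stood at 17.4 RPKM in the male and 14.4 in the female library. Chrna7, whose product forms channels of 1 subunit type with high calcium permeability, stood at 9.26 and 7.02 RPKM. The other α subunits were much lower. Chrna2, a subunit known from Renshaw cells, was at 1.15 RPKM in the male and 1.21 in the female library. Chrna3, the main α subunit of autonomic ganglia, was at 1.04 and 0.87 RPKM, and the accessory subunit Chrna5 at 0.47 and 0.37. Chrna3 and Chrna5 neighbour each other on chromosome 9 on opposite strands with facing 3′ ends. The RNA-seq kit does not mark strand, so reads past a gene's end could not be told apart there, while the CLIP reads keep their strand.

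Of the β subunits, Chrnb2, the partner of Chrna4, was at 13.4 RPKM in the male and 12.3 in the female library. Chrnb4, the partner of Chrna3 in autonomic ganglia, was at 0.39 and 0.14 RPKM (99 and 31 reads). In the tissue as a whole, fewer cells of a type and less RNA per cell cannot be told apart in these values.

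Among the muscarinic receptors, Chrm2 was the highest of all 10 members at 24.7 RPKM in the male and 21.8 in the female library, above 83.7% of the genes in the table. Chrm3 was at 3.74 and 2.98 RPKM. Chrm1, a receptor typical of forebrain neurons, was lowest at 0.14 and 0.13 RPKM, from 63 and 54 reads. By mean RPKM the order was Chrm2, Chrna4, Chrnb2, Chrna7, Chrm3, Chrna2, Chrna3, Chrna5, Chrnb4 and Chrm1, and the values of neighbours overlapped between libraries for Chrna5 and Chrnb4 and for Chrnb4 and Chrm1 alone. The closest of the other neighbours were Chrna2, 1.23 times Chrna3 by mean, and Chrna4, 1.24 times Chrnb2. With 2 libraries, the spread behind this order rests on 1 difference per gene.

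**Figure D1:**
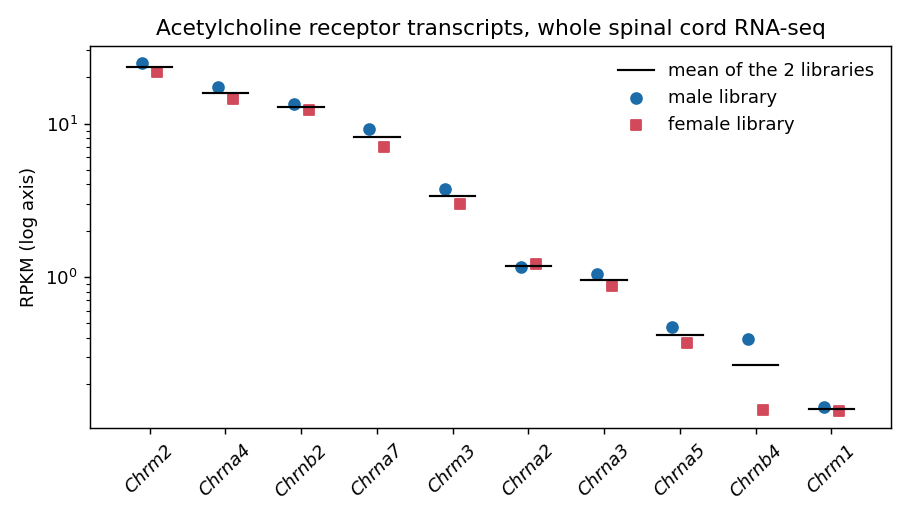
RPKM (log axis) of the 10 receptor genes in the male (circle) and female (square) WSC RNA-seq libraries, with a line at their mean, ordered by mean. Chrm2, Chrna4, Chrnb2 and Chrna7 lie above 7 RPKM in both libraries, and Chrnb4 shows the widest gap, 0.39 against 0.14.

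Between the libraries, 1 of the 10 members differed more than 1.5-fold, and 8.04% of the 14266 genes with a mean of at least 0.1 RPKM did. This was Chrnb4, with a male-to-female ratio of 2.91 and an exact 95% interval of 1.93 to 4.51 that covers counting error only. With a pseudocount of 1 its log2 difference fell from 1.07 to 0.30 and was no longer past 1.5-fold. The difference compares 1 animal with 1 animal and was not tested between the sexes. The other ratios ran from 0.95 for Chrna2 to 1.32 for Chrna7.

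Splicing of the members could not be measured. The cassette exon of Chrm1 (92 nt, chr19:8739399-8739490, in the gene's 5′ UTR) had 1 junction read in the male library, joining the exon, and 2 in the female library, both skipping it. It missed the minimum of 10 junction reads in each library, as 0 of 1 member exons were covered against 9396 of all exons, of which 4.26% differed between the libraries by Fisher's exact test at FDR ≤ 0.1.

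The genes around these receptors give context. Of 11 other nicotinic subunits and muscarinic receptors, 0 reached a mean of 1 RPKM, which 11940 of all 19215 genes did. The highest were Chrnb1, of the muscle receptor (0.84 and 1.05 RPKM), Chrm5 (1.01 and 0.76) and Chrm4 (0.84 and 0.53), and the muscle subunit Chrnd was at 0 in both libraries. All 8 genes for the synthesis, transport and breakdown of acetylcholine passed 1 RPKM, led by the choline transporters Slc44a1 (85.1 and 90.9) and Slc5a7 (28.0 and 46.9) and by Ache, the esterase (45.05 and 40.7). Of the receptor chaperones and Ly6-family proteins, 7 of the 9 measured passed it, with Lynx1, a membrane-anchored modulator of nicotinic receptors, at 118 and 113 RPKM, Ly6e at 49.7 and 45.3, and Tmem35, a nicotinic receptor chaperone, at 35.1 and 39.8. All 14 genes of muscarinic signalling passed 1 RPKM. The highest were the G protein subunits Gnai2 (109 and 88.3), Gnai1 (75.3 and 73.9) and Gnao1 (65.7 and 64.8).

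The CLIP comparison asked which receptor transcripts had more or fewer NOVA reads in MN than in WSC. Chrm2 had more, Chrna4 and Chrnb2 had fewer, and Chrna7 had no difference past the test, in edgeR's quasi-likelihood test at FDR ≤ 0.01. Only these 4 of 10 members passed the filter on low counts. Over the 4536 genes tested, 28.1% were higher and 29.1% lower in MN, so a call was common. Counts of CLIP reads per gene reflect how much transcript there is as well as how much of it NOVA binds, and these cannot be told apart here. In mm9 the 4 genes lie at chr2:180753085-180778251 (Chrna4), chr3:89557370-89568554 (Chrnb2) and chr7:70243578-70357455 (Chrna7) on the minus strand and at chr6:36338084-36478414 (Chrm2) on the plus strand.

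Of these 4, Chrna4 had the largest difference. Its RPM values were 220, 222, 203 and 216 in the 4 WSC libraries, and 12.5, 33.9 and 100 as the lowest, median and highest of the 8 MN libraries. Every MN library lay below every WSC library, which held for 18.5% of the genes tested. The log2 difference, MN minus WSC, was -3.16 (SE 0.22, FDR 9.2e-13), or 8.96-fold lower in MN, and 0.33% of tested genes had a lower value. The MN side rested on 35 reads in all, 2 to 10 per library, against 3029 in WSC. Chrna4 stayed past the threshold under all 26 other settings, from -3.87 with intronic reads only to -2.42 with exonic reads only.

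Its partner Chrnb2 was also lower in MN, but less so. WSC libraries had 136, 126, 111 and 109 RPM. The MN libraries had 33.8 at the lowest, 57.2 at the median and 160 at the highest, and Chat17 replicates 1 and 3 (160 and 152) were above all WSC libraries. The log2 difference was -1.17 (SE 0.22, FDR 5.4e-05) on 77 MN reads. This call was lost in DESeq2 (-0.87, FDR 0.026) and when only exonic reads were counted (-0.41, FDR 0.13). All but 2 of the gene's reads were exonic. Intronic reads, left out of the library totals in the exonic fit, were on average 60.9% of MN and 36.5% of WSC reads over all genes. Whether this bore on the lost call was not tested.

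Chrna7 did not pass the test. The WSC libraries had 103, 96.8, 94.3 and 104 RPM, and the MN libraries ranged from 65.7 through a median of 115 to 138, on both sides of WSC. The log2 difference was 0.06 (SE 0.15, FDR 0.73), with a 95% interval of -0.23 to 0.36.

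Chrm2 had more reads in MN. The WSC libraries had 486, 606, 574 and 527 RPM, and the MN libraries 460, 763 and 982 at the lowest, median and highest. Chat17 replicate 1 (460) and Chat6 replicate 1 (544) lay within or below the WSC range, and the other 6 MN libraries lay above it. The log2 difference was 0.57 (SE 0.11, FDR 9.2e-05), or 1.48-fold, on 1224 MN and 7930 WSC reads. The call was lost with the Chat17 line alone (0.44, FDR 0.014) and with no filter on low counts (0.32, FDR 0.021). In the latter fit the median of all genes was at -0.31.

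**Figure D2:**
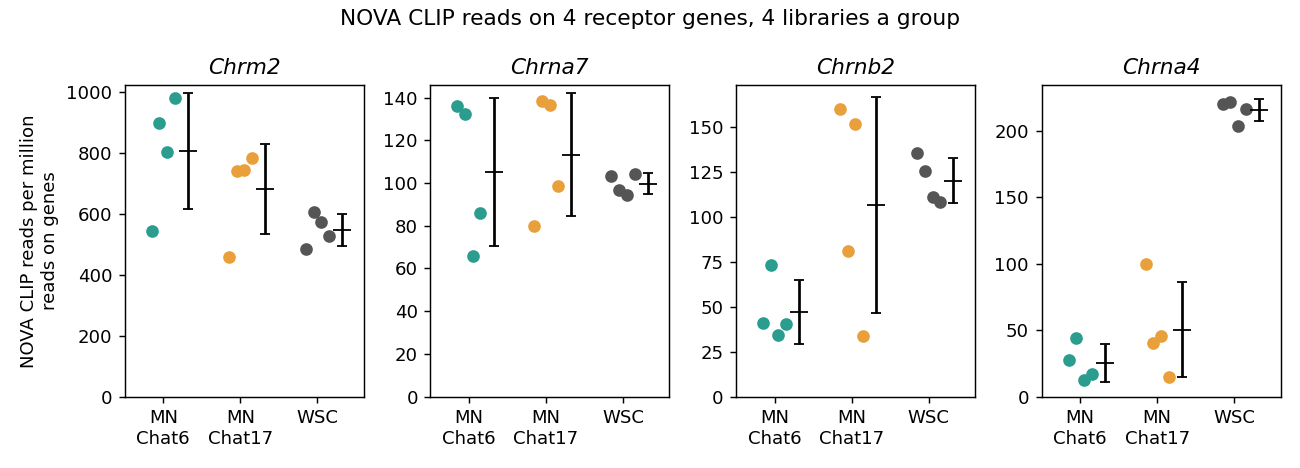
NOVA CLIP reads in RPM (linear axes from 0) for the 4 tested receptor genes, with 1 point per library in 2 MN lines and WSC and the mean ± SD of 4 libraries beside each. All 8 MN points of Chrna4 lie under the WSC points (203 to 222), while those of Chrna7 lie on both sides.

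The 2 MN lines were also set against each other. No member passed the test. The log2 differences, Chat6 minus Chat17, were -0.43 (SE 0.59) for Chrna4, -0.52 (SE 0.46) for Chrnb2, -0.29 (SE 0.27) for Chrna7 and 0.19 (SE 0.16) for Chrm2, each with an edgeR FDR of at least 0.98. Without Chat17 replicate 4 they were -1.53 for Chrna4 (FDR 0.26) and -1.53 for Chrnb2 (FDR 0.11). Of 4536 genes, 0 higher and 0 lower passed edgeR's FDR ≤ 0.01 (0.0% each), and 215 had an unadjusted p under 0.05. Each line alone gave Chrna4 lower (-3.43 for Chat6, -2.97 for Chat17) and Chrnb2 lower (-1.48 and -0.95). Chrm2 was at 0.66 and 0.44.

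The 6 members under the filter were counted directly. Chrna2 had 7, 14, 13 and 7 reads in the WSC libraries and 0 in all MN libraries, where the WSC rate would have given 4.52. Taking 3 reads over the 8 MN libraries as the limit of a count of 0, it was at least 1.51-fold lower in MN. Chrna5 had 22 WSC reads and 0 MN reads, but its WSC rate would give 2.42 MN reads, so a difference was not detectable at this depth. Chrm3 had 37, 50, 43 and 10 reads in WSC and 1 in MN, in Chat17 replicate 1, a rate 15.4 times as high in WSC (exact 95% interval 2.72 to 613, counting error only). The annotation holds only the coding exon of Chrm3, so reads in its introns and UTRs were not counted. Chrna3 had 147 WSC and 7 MN reads, 2.31 times as high in WSC (1.10 to 5.85). Chrnb4 had 22 WSC and 4 MN reads, a WSC-to-MN ratio of 0.61 whose interval runs from 0.21 to 2.42. Chrm1 had 1 read in each WSC library and 5 in MN, 4 of them in Chat17 replicate 1.

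A fit with no filter on low counts tested all 10. In it Chrm3 (-3.86, SE 0.82, FDR 1.9e-05) and Chrna2 (-4.99, SE 1.63, FDR 0.0099) passed the threshold with fewer MN reads, as did 15.9% of 16430 genes, while 7.16% passed with more. Without Chat17 replicate 1, which holds the only MN read of Chrm3, Chrm3 was at -6.84 with all remaining MN libraries at 0, so the fitted size of its difference rests on 1 read. Chrna2 missed the threshold without that library (FDR 0.013) at about the same size (-5.10). Chrm1 passed with more MN reads (3.05, SE 0.93, FDR 0.0050) and was at 0.92 (FDR 0.69) without Chat17 replicate 1. Chrna3 (-1.32, FDR 0.030), Chrna5 (FDR 0.076) and Chrnb4 (0.56, FDR 0.66) did not pass.

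Markers of other neurons moved in the same comparison. The inhibitory interneuron markers, 5 of 5 of which passed the test lower in MN, summed to 97.6 to 520 RPM in MN libraries and 2547 to 2756 in WSC. Of all genes tested, 29.1% passed lower. Their largest differences were for Slc6a5, the glycine transporter (-4.27, SE 0.16), and Slc32a1, the vesicular transporter of GABA and glycine (-4.20, SE 0.30), with Gad1 at -2.92, Gad2 at -2.06 and Pax2 at -1.71. Slc32a1 and Pax2 (MN medians 11.4 and 17.4 RPM) passed the filter on low counts only through WSC (medians 179 and 58.3 RPM). These genes were therefore testable only because WSC was high. Of the excitatory interneuron markers, Slc17a6, the vesicular glutamate transporter, was testable and lower (-3.53, SE 0.16). The astrocyte markers Aqp4 (-0.71) and Gfap (-0.75) were lower too. For Chrna4 and Chrnb2 the part of these cell types in the result was not tested. Of the 4 general neuronal markers Snap25 was higher (0.62, SE 0.12) and the other 3 missed the threshold. The oligodendrocyte marker Mbp did not pass (-0.11, edgeR FDR 0.53). No microglial, endothelial, muscle, dorsal root ganglion or autonomic marker was testable. The 4 dorsal root ganglion markers had 0 reads in all MN libraries, as did Dbh of autonomic neurons.

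The genes that act with the receptors were read in the same fit, in which 28.1% of all genes tested passed higher and 29.1% lower in MN. Of 8 genes for the synthesis, transport and breakdown of acetylcholine, 4 were testable and 3 passed with more MN reads: Chat, which makes acetylcholine (3.08, SE 0.13), Slc5a7, the choline transporter of cholinergic terminals (2.24, SE 0.16), and Prima1, the membrane anchor of acetylcholinesterase (1.21, SE 0.15). The median of the 4 was 1.72, against -0.02 for all genes tested. Chat is the gene whose promoter drives the transgene.

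Chaperones and Ly6-family genes went both ways. Of 11 listed symbols, 10 of them in the CLIP annotation, 6 were testable. Of these, 2 passed with more MN reads and 4 with fewer, beside 28.1% and 29.1% of all genes tested. Lypd6 (2.06, SE 0.15) and Lypd6b (0.77, SE 0.16) rose. Lypd1 (-2.58, SE 0.31), Ly6e (-1.44, SE 0.26), Ric3, a chaperone of nicotinic receptors (-1.0, SE 0.14), and Lynx1 (-0.68, SE 0.11) fell. Lypd1 and Ly6e (MN medians 12.5 and 16.9 RPM) passed the filter only through WSC (medians 70.9 and 55.6 RPM). Both were therefore testable only because WSC was high. The call of Lypd6b was lost without Chat17 replicate 4 (FDR 0.017), and Ly6e was under the filter in 6 of 12 fits that left out 1 library.

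Muscarinic signalling had 12 of 14 genes testable, with 7 higher and 2 lower in MN and a median of 0.34. Of all genes tested, 28.1% were higher and 29.1% lower, so a call was common. The phospholipase gene Plcb1 (1.51, SE 0.10), which acts below Gq proteins, and Rgs4, a brake on G protein signals (1.10, SE 0.24), rose, as did Plcb4 (0.44, SE 0.09) and the M-current channel genes Kcnq3 (0.42, SE 0.09) and Kcnq5 (0.44, SE 0.13). The potassium channel gene Kcnj6 (-1.60, SE 0.14) and the G protein gene Gnao1 (-0.55, SE 0.10) fell. Gnaq (0.26, SE 0.09, FDR 0.0094) kept its call in 5 of 12 fits that left out 1 library. Kcnq5 kept it in 10, losing it without Chat17 replicate 4 and without WSC replicate 1. Gna11 (2.14, SE 0.58) had 0 to 480 RPM in MN libraries and was under the filter in 5 of the 12. With 16.3 to 21.1 RPM in WSC, Gna11 passed the filter only through MN libraries, so it was testable only because MN was high. Of 11 other receptor genes 0 were testable.

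**Figure D3:**
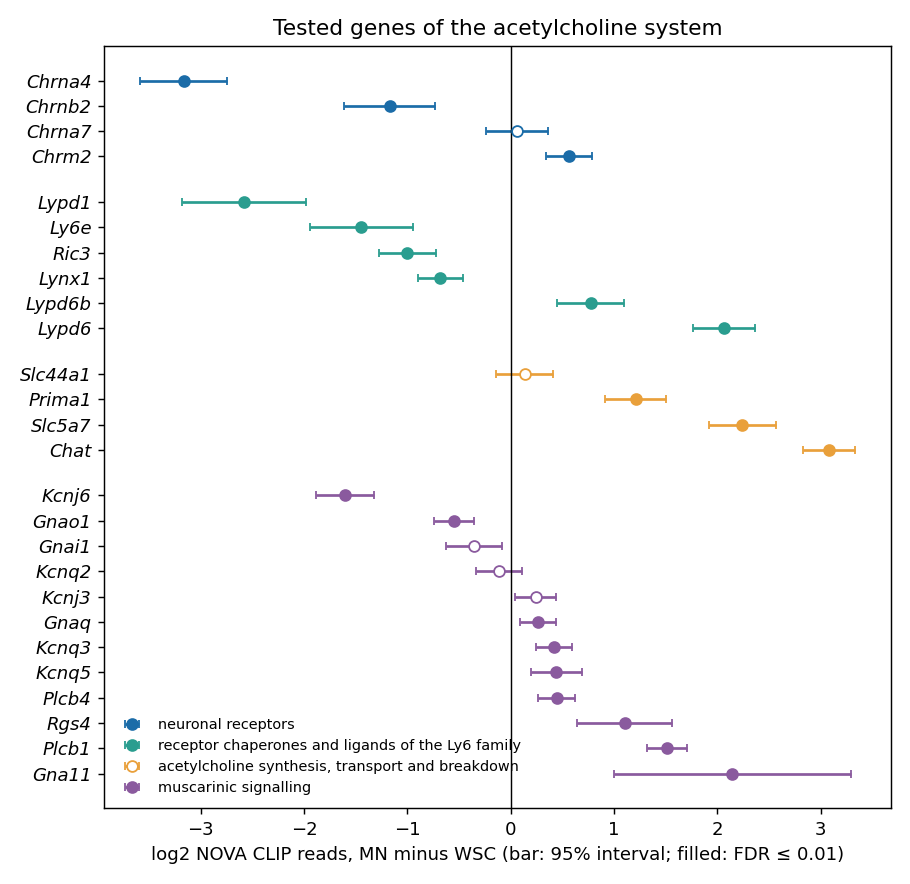
Log2 difference in NOVA CLIP reads, MN minus WSC, for the tested genes of the acetylcholine system, with bars for the 95% interval and filled points at FDR ≤ 0.01. Of the receptors, Chrna4 (-3.16) and Chrnb2 (-1.17) lie left of 0, Chrna7 (0.06) on it and Chrm2 (0.57) right of it.

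Where the reads fell within a gene was compared next. Chrm2 spans 140331 bases, with its coding sequence and 3′ UTR at the far end. Intronic reads made up 68.6% ± 10.02 (SD, n = 8) of its MN reads and 41.04% ± 3.3 (SD, n = 4) of its WSC reads. The lowest MN share (49.0%) was above the highest WSC share (44.3%). By an exact permutation test over libraries the difference of 27.6 percentage points gave p = 0.002, the smallest 8 against 4 libraries allow, and 0.016 adjusted over 5046 genes. The same held for many genes: 32.4% passed at an adjusted p ≤ 0.05 with a higher MN share, the median gene was 15.6 points higher, and Chrm2 exceeded 76.6% of genes. Over all genes together, 60.9% ± 3.8 (SD, n = 8) of MN reads and 36.5% ± 2.2 (SD, n = 4) of WSC reads were intronic.

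Chrna7 spans 113878 bases and had an intronic share of 62.7% ± 11.9 (SD, n = 7) in MN libraries with at least 5 reads and 43.5% ± 4.6 (SD, n = 4) in WSC. The difference of 19.2 points (exact permutation p = 0.018, adjusted 0.052) missed the threshold. Chrna4 had 13.3% in the 3 MN libraries with enough reads and 15.3% in WSC (exact permutation p = 0.89, adjusted 0.93), and 2.73% of genes had a smaller difference. Chrnb2 had 0 intronic reads in MN and 2 in WSC.

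**Figure D4:**
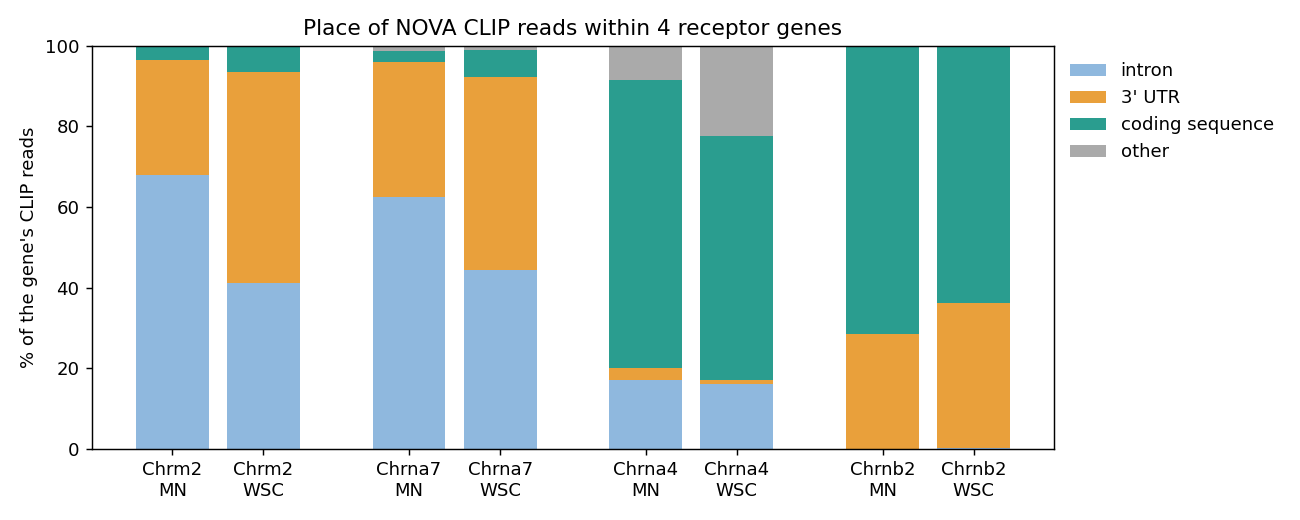
Share of each gene's CLIP reads (stacked to 100%) in introns, 3′ UTR, coding sequence and other exonic parts, for MN and WSC libraries pooled. The intron part of Chrm2 is 68.0% in MN and 41.2% in WSC, while Chrnb2 has almost none in either.

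Reads in exons also had their places. In Chrm2 the 3′ UTR held 28.4% of MN reads and 52.5% of WSC reads, and coding sequence 3.35% and 6.22%. Chrna7 reads in exons were mostly in the 3′ UTR (33.6% in MN, 48.0% in WSC). In Chrna4 and Chrnb2 coding sequence led instead, with 71.4% and 71.4% of MN reads and 60.7% and 63.8% of WSC reads. Exon parts annotated as untranslated within the Chrna4 gene held 8.57% of its MN and 22.3% of its WSC reads. Chrna3 was bound in its 3′ UTR (85.7% of 147 WSC reads), and Chrna2 mainly in coding sequence (63.4% of 41 WSC reads).

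The read clusters themselves were chosen on these reads, so their depths are a description. At the MN position of Chrnb2 printed above, 21 MN reads from all 8 libraries and 415 WSC reads overlapped, 27.3% and 24.3% of the gene's reads. Per library the MN depths were 2, 3, 2 and 1 in Chat6 and 4, 4, 1 and 4 in Chat17. The Chrna4 position had 7 MN reads from 4 libraries, 3 of the reads in Chat17 replicate 1, and 287 WSC reads (20% with an exact 95% interval of 8.44% to 36.9%, and 9.48%). Within 20 nt of these points lay 5 and 3 YCAY tetramers, against a mean of 0.69 in 41-nt windows over the whole length of the 10 genes, introns included.

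The intronic point of Chrm2, with its TCAT repeats, had 28 MN reads from 5 libraries, 13 of them in Chat17 replicate 4, and 101 WSC reads, 2.29% and 1.27% of the gene's reads. The repeat gives 6 tetramers within 20 nt. The 3′ UTR point had 22 MN reads and 479 WSC reads, 1.80% and 6.04%. Around the intronic point, the 2-kb bin 36 kb from the gene's start held 11.2% of MN and 4.75% of WSC reads. In the bins 136 and 138 kb from the start the order was reversed, with 16.2% and 11.3% of MN reads and 27.4% and 22.7% of WSC reads.

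The 3′ UTR point of Chrna7 had 20 MN reads from 5 libraries and 324 WSC reads, 13.2% and 23.4% of its reads. That of Chrna3 had 5 of 7 MN reads and 51 of 147 WSC reads. The deepest points of Chrna2 (14 WSC reads) and Chrm3 (24) lay in coding sequence with 6 and 2 tetramers within 20 nt, and those of Chrna5 (5) and Chrnb4 (4) in 3′ UTRs with 2 and 0. Of the 9 members with at least 20 reads, 8 had a tetramer within 20 nt of the deepest point, against 48.6% of windows of that length. Those windows covered whole genes, introns included, whereas all 9 points lay in coding sequence or a 3′ UTR, so the 48.6% is not a matched rate. No cluster was sought for Chrm1, which had 9 reads.

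**Figure D5:**
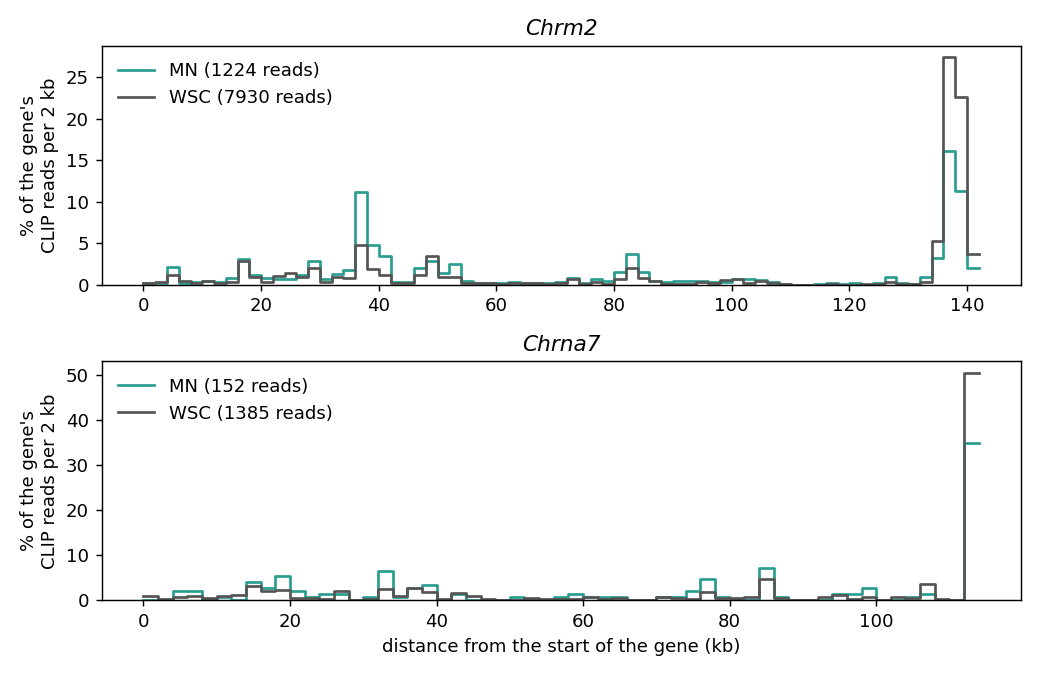
Percent of a gene's CLIP reads in 2-kb bins by distance from the gene's start (kb), for Chrm2 and Chrna7, in MN (green) and WSC (grey) libraries pooled. Chrm2 peaks 36 kb in (11.2% of MN, 4.75% of WSC reads) and over its last bins, and Chrna7 in its last bin (34.9% and 50.4%).

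The genes whose CLIP reads followed Chrm2 most closely were Slco3a1 (Pearson r = 0.95), Vps13b (0.95) and Rora (0.95), over 12 libraries that share the MN and WSC contrast. Chrm2 was the only member with a mean of at least 20 reads in both conditions, the minimum for this comparison.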

How the data were processed

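The 12 CLIP libraries were deposited as lists of unique reads: the authors aligned reads with Novoalign to mm9, collapsed those with the same position and barcode, and wrote a score per read, which was not used here. The RNA-seq tables hold read counts and RPKM per gene and junction read counts per cassette exon, which the authors made from unstranded poly(A) libraries aligned to mm9. Recomputed RPKM equalled the deposited RPKM.

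A CLIP read was counted for the protein-coding gene of GENCODE vM1 (mm9) that alone held its midpoint on its strand. MN and WSC were compared with edgeR 4.0.16 (quasi-likelihood test, TMM, filterByExpr, Benjamini-Hochberg adjustment, FDR ≤ 0.01), 12 libraries in 1 fit, and Chat6 and Chat17 in a fit of 3 groups. SE is the log2 difference over the square root of F. DESeq2 1.42.0, other scalings, filters and read sets, and fits without each library were alternatives. Cassette exons with at least 10 junction reads in each library were compared by Fisher's exact test (FDR ≤ 0.1). Intronic shares used libraries with at least 5 reads and genes with 3 such libraries per condition, with a two-sided exact permutation test on the absolute difference in means. The design foresaw adjusting its p-values over the receptor genes, but they were adjusted over all genes tested. Tests were tried on simulated data: with 4536 genes simulated for MN against WSC, 88.0% of 100 genes changed 2-fold and 95.0% of 100 changed 4-fold were recovered, and for Chat6 against Chat17 51.0% and 94.0%. The simulation gave all genes the same dispersion and changed only 200 of them, far fewer than were called in MN against WSC. These rates are therefore not the power of the real comparisons.

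The fold between RNA-seq libraries used RPKM plus 0.1. Sequences were read from the mm9 genome. Clusters were sought in genes with at least 20 reads. Intervals and limits of a count of 0 (3 reads) cover counting error only. Libraries are biological replicates per the labels. The members and the gene lists were chosen with earlier results of these data known. Named were all 10 members, all their covered exons and, from each list, the genes called in the CLIP comparison and the 3 with the highest mean RPKM. Symbols Nacho, Lypd6b and Rbfox3 were not matched in the RNA-seq tables, Nacho and Slc18a3 not in the CLIP annotation. Nacho is a name for the product of Tmem35, which was on the same list and was measured, so it adds no gene. Replicates 1 to 4 carry the same numbers in each CLIP group. Results for some marker genes are not reported here.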

Additional observations from a re-analysis of the deposited data

Results flagged for a closer look

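In 6 of 25 groups of 4 libraries with any spread, 1 library stood farther from the rest than Dixon's 95% limit. For continuous values chance passes it in about 1 group in 20, a rate that does not hold for counts of a few reads. Where the other 3 libraries had 0 reads, as for Chrm1, Chrm3 and Chrnb4, any read passes the limit. The number of groups past it is therefore a description. In Chat17 replicate 1, the shallowest library, Chrm2 was low at 460 RPM (23 reads), and Chrm1 (80.0, 4 reads) and Chrm3 (20, 1 read) were high against 0 in the other 3 Chat17 libraries. Chrm1 in Chat6 replicate 1 (13.6 RPM) rested on 1 read and Chrnb4 in Chat17 replicate 4 (2.94) on 2. Chrnb2 in Chat6 replicate 2 was at 73.6 RPM, from 5 reads.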

How the results depend on the processing

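Chrna4 kept its call under all 26 alternatives (log2 -3.87 to -2.42), Chrna7 stayed without one under all 25 (FDR 0.22 to 0.96), and Chrm2 and Chrnb2 kept theirs under 24 of 26 and 23 of 25. The exceptions were Chrm2 with no filter on low counts (0.32) and with Chat17 alone (0.44), and Chrnb2 in DESeq2 (-0.87) and with exonic reads only (-0.41). The cause was not tested. Leaving out 1 library gave -3.32 to -2.83 for Chrna4, -1.30 to -0.87 for Chrnb2, 0.01 to 0.20 for Chrna7 and 0.49 to 0.63 for Chrm2. Counts of all genes moved by over 1.5 times with exonic reads only (540 higher, 549 lower, of 2249 tested), intronic reads only (346 and 386, of 2714) and no filter (2608 lower of 16430, or 2607 without Chat17 replicate 1, a fit chosen after seeing the data, as was one without replicate 1 of both lines). They ran from 957 to 1387 higher and 931 to 1433 lower when 1 library was left out. Between the lines, 1 gene passed with no filter and 3 without Chat17 replicate 4, from a range of 0 to 3. With the replicate block, 1034 genes were higher and 1120 lower, and no call of a member changed. Correlations of the deviations of same-numbered libraries ran from -0.07 to 0.09 between a line and WSC. Between the lines they were 0.15, 0.10, 0.08 and 0.23 for numbers 1 to 4, 3 of them over 0.1, and the longest reads matched by number (34, 47, 80 and 80 nt), but Chat6 replicate 3 correlated more with Chat17 replicate 4 (0.17). The numbers were not taken to pair the libraries. With the block between the lines 0 genes passed, although Chrm2 was higher in Chat6 at each of the 4 numbers (log2 0.23, SE 0.14, edgeR FDR 1.0). The intronic shares of Chrm2 and Chrna7 stayed on their side of the threshold under all alternatives. Exon body reads added to the inclusion rate were not run, since no member exon was covered. The log2 difference of Chrnb4 between libraries fell from 1.07 to 0.30 with a pseudocount of 1, which ended its call. Depth limits the MN side, where 4 of 10 members passed the filter.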
